A study of Rattus norvegicus with 6 samples.

Results

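A set of 10 genes was examined in cultured brainstem cells because of large strain differences at single probes. For 9 of them, 1 or more probes had no overlap between the arrays, and for Tmem50b a probe had values in 1 strain only. They are Nt5c3a, Chmp1b, Nr1i3, Strbp, Mob1a, Tmem50b, Lrif1, Clec2d, Zfp597 and Apol3l1, which is 10 of the 12198 genes that have a probe with 1 gene symbol. Every probe carrying 1 of these symbols was taken, which gave 16 of the 33849 probes of the series table, and 15 of the 16 could be compared between the strains. The members were chosen by the size of the intensity difference between the strains and the lack of overlap of their arrays (Tmem50b by missing values in SHR), so that difference is described here with its error and without a test. Of the 10 genes, 6 had 1 probe, and 4 genes, Strbp, Mob1a, Tmem50b and Apol3l1, had several.

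The samples were cells grown from the brainstem of 2 inbred rat strains, the spontaneously hypertensive rat (SHR), whose high blood pressure is inherited, and its usual normotensive comparison, Wistar Kyoto (WKY). Each strain had 3 single-colour CodeLink arrays, and each array carried RNA from 3 culture dishes that had been pooled. No treatment is named for either strain, and the labels used here name no age or sex. The design text calls the arrays independent biological replicates without naming litters or culture days, so SD and p-values describe the spread between these pooled samples, which may be technical.

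Array medians in the tables of single samples lay between 439 and 572 intensity units, and the series table, which was used below, had been brought to a common median of 520. Between arrays, correlations over all probes were 0.969 to 0.979 within a strain and 0.964 to 0.977 across the strains. With so few arrays, precision was limited throughout. Of the marker lists for brain cells, astrocyte genes (8) summed to 172769 to 189836 intensity units in SHR against 181777 to 184864 in WKY and neuron genes (7) to 27091 to 42814 against 28050 to 38411, with no value at or under 0. Oligodendrocyte lineage genes (11) summed to 64079 to 114825 against 109098 to 125634. Microglia and macrophage genes (10) summed to 186270 to 190921 against 188550 to 197572, as bright as the astrocyte list. A signal from such a culture cannot separate fewer cells of a type from less RNA per cell. In the limma fit of 33249 probes, the adjusted p was under 0.05 for 0 of them, while 2545 (7.65%) had an unadjusted p under 0.05, 3.65% higher and 4.01% lower in SHR.

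The 10 genes belong to no single pathway. Nt5c3a encodes a cytosolic nucleotidase that removes the phosphate from pyrimidine nucleotides, Chmp1b a subunit of the ESCRT-III filaments that pinch off membranes, and Mob1a a coactivator of the LATS and NDR kinases in the Hippo pathway, which restrains growth. Nr1i3 is the constitutive androstane receptor, a nuclear receptor best known in the liver as a sensor of drugs and other foreign compounds. Strbp binds double-stranded RNA and was described in developing spermatids, and Lrif1 binds nuclear receptors and heterochromatin proteins. Clec2d encodes a C-type lectin that engages an inhibitory receptor of natural killer cells, Apol3l1 a member of the apolipoprotein L family, several of whose genes respond to interferon, Zfp597 a zinc finger protein from an imprinted region, and Tmem50b a small membrane protein of the endoplasmic reticulum and Golgi.

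RefSeq promoter sequences of 9 of the 10 genes, all but Chmp1b, were matched by symbol in assembly GRCr8. Each runs from 250 bases before to 50 bases after the annotated start. The first is shown because an interferon response core, searched as GAAANNGAAA on both strands, was found in it and in none of the other 8. Of all 33469 promoters of this length, 1312 (3.92%) hold that core. The capitals mark the core, read on the opposite strand, in the Apol3l1 promoter at chr7:111169057-111169356, plus strand.
Apol3l1: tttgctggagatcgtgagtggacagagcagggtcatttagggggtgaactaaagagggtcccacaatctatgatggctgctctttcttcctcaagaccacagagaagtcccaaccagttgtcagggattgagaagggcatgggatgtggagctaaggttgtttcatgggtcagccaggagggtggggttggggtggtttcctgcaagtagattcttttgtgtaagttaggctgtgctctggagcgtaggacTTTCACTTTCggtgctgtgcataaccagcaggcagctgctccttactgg
The next are shown because Nt5c3a, Nr1i3 and Zfp597 gave array patterns that ran closely together or closely opposed, as described below. Capitals mark each CG pair. The windows are chr4:87534789-87535088 on the minus strand for Nt5c3a, chr13:86165170-86165469 on the plus strand for Nr1i3 and chr10:12159283-12159582 on the plus strand for Zfp597.
Nt5c3a: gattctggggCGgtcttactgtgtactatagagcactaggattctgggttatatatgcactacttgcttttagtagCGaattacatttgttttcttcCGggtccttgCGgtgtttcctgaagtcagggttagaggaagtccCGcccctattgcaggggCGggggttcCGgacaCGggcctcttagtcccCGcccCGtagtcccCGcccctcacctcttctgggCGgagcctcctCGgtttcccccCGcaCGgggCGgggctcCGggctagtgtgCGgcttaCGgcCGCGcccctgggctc
Nr1i3: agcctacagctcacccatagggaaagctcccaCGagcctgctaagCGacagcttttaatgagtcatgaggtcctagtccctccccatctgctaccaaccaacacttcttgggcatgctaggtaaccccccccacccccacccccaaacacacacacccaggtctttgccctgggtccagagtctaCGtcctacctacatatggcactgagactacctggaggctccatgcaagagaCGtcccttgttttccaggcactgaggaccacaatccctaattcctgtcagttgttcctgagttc
Zfp597: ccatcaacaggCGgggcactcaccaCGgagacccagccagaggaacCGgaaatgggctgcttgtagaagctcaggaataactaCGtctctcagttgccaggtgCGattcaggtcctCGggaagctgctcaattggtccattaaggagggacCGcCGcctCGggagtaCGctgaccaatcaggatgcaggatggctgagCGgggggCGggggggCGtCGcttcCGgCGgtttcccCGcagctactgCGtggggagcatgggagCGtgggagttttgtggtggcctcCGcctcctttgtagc
The Nt5c3a window has 21 CG pairs and the Zfp597 window 20, more than in 77.4% and 75.8% of all promoters of the table. The Nr1i3 window has 4, more than in 30.8%, where the median promoter has 7. The Nt5c3a and Zfp597 windows were thus alike in CG content, and the Nr1i3 window had fewer pairs. That likeness was not particular to these genes, since the Lrif1 window had 20 pairs, Tmem50b 25 and Mob1a 17. The Clec2d, Apol3l1 and Strbp windows had 7, 3 and 2. A relation between CG content and the array patterns was not tested. A match or its absence describes these letters in these windows and says nothing of a factor.

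Of the 15 member probes compared, 11 had no overlap between the strains and a difference of at least 2-fold, where 1.39% of all probes did. These 11 belong to 9 genes, and 7 were dimmer and 4 brighter in SHR. Without regard to size, 13.8% of all probes had no overlap, 6.35% brighter and 7.48% dimmer in SHR. Of the 11 member probes, 5 reached 4-fold, where 0.168% of all probes did (0.0602% brighter, 0.108% dimmer). These shares restate how the members were chosen. The differences are given as SHR minus WKY on the log2 scale, with the standard error (SE) of the fit over all probes.

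**Figure D1:**
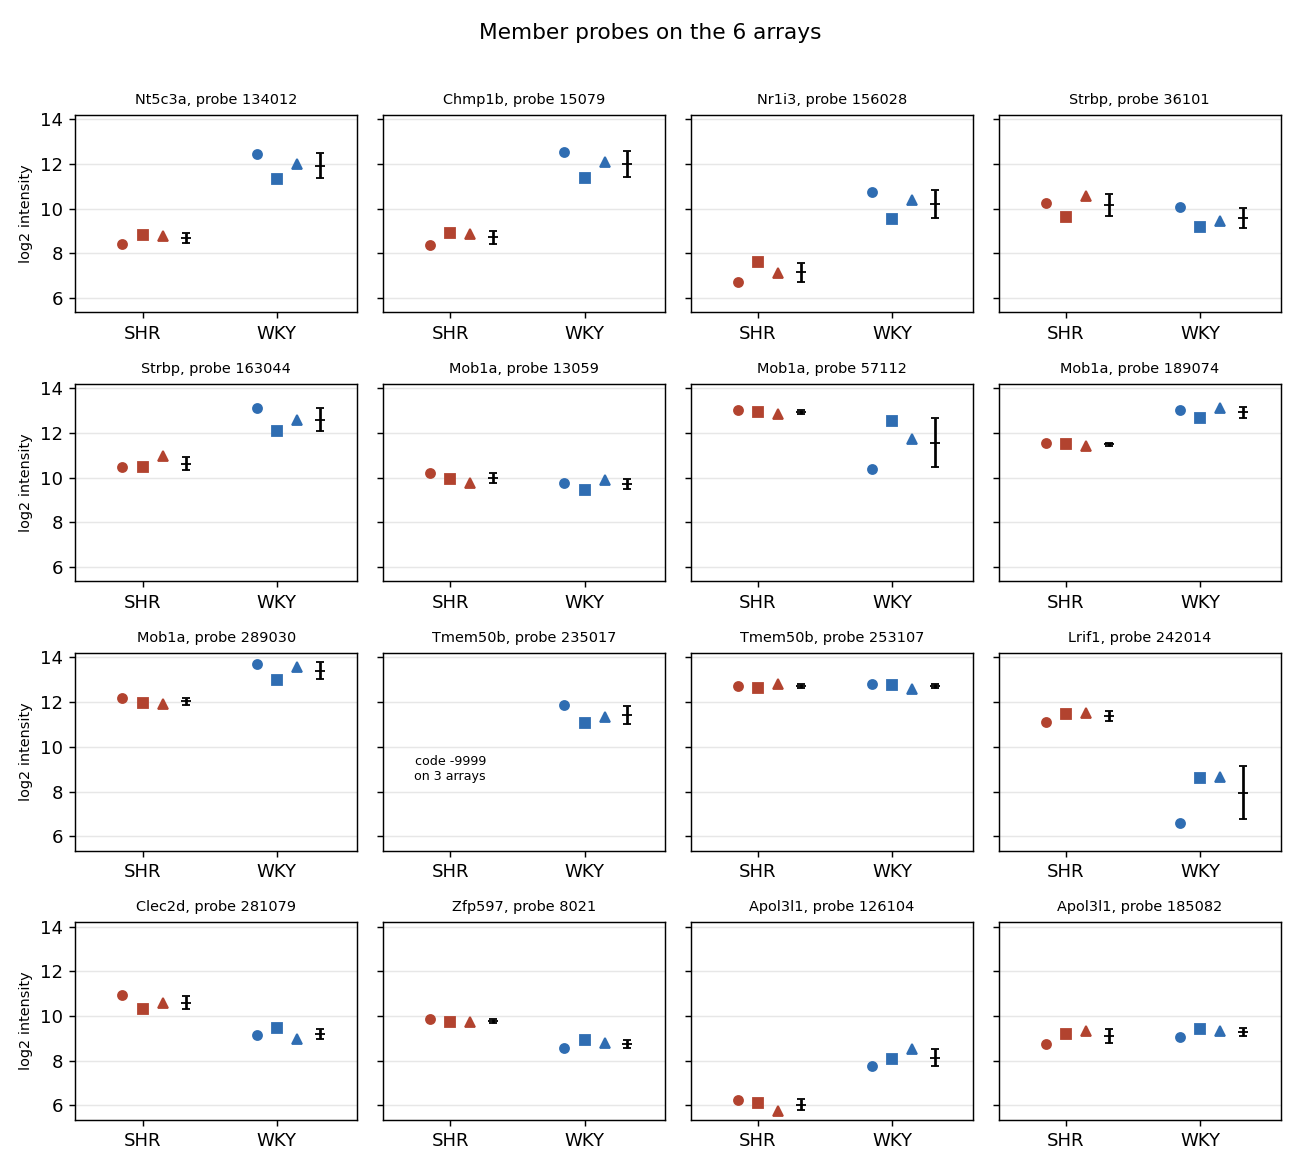
Log2 intensity of the 16 member probes in the series table (vertical axis) on the 3 SHR arrays (red) and the 3 WKY arrays (blue). The circle, square and triangle are replicates 1, 2 and 3, and the black bars give the mean and SD of each strain. Nt5c3a, Chmp1b and Nr1i3 lie far apart between the strains, while the second Tmem50b probe lies at the same level in both.

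Among the genes dimmer in SHR, the nucleotidase gene Nt5c3a gave 341, 454 and 445 intensity units on the SHR arrays and 5508, 2596 and 4141 on the WKY arrays. All SHR values were below all WKY values, and the lowest WKY array was 5.71 times as bright as the highest SHR array. The mean log2 intensity was 8.68 ± 0.23 (SD, n = 3) in SHR against 11.93 ± 0.55 in WKY, a difference of -3.25 ± 0.29 (SE), or 9.51-fold. In the tables of single samples, before normalization between arrays, the values were 326, 517 and 473 against 5802, 2346 and 3549, and the strains were separated there too.

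The ESCRT-III gene Chmp1b read 333, 486 and 466 units in SHR against 6019, 2674 and 4398 in WKY. Its difference was -3.29 ± 0.32 (SE), or 9.79-fold. The order of the 6 arrays was the same as for Nt5c3a, with SHR 1 lowest and WKY 1 highest.

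The receptor gene Nr1i3 was dimmer, at 106, 194 and 140 units in SHR against 1708, 739 and 1361 in WKY. Its mean log2 intensity was 7.15 ± 0.44 (SD, n = 3) in SHR against 10.23 ± 0.62 in WKY, and the difference was -3.08 ± 0.36 (SE), or 8.43-fold. The groups did not overlap here either. Hepatocyte markers, listed because Nr1i3 is a liver gene, had a summed intensity of 4758 to 7509 units in SHR against 2320 to 3332 in WKY over 8 genes, with none at or under 0. That list includes Ttr, which is also a choroid plexus gene and had the largest difference in it (2.66, mean log2 11.92 in SHR against 9.26 in WKY). The other genes lay between -0.41 (Cyp2e1) and 0.33 (Apoa1), so the gap between the sums rests mainly on Ttr. The list median was 0.02, and 3 of the 8 genes lay below 0. The part of these genes in the Nr1i3 values was not tested.

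The double-stranded RNA binding protein gene Strbp had a pair of probes that disagreed. Probe 163044 gave 1417, 1423 and 1992 units in SHR against 8837, 4363 and 6089 in WKY, a difference of -1.96 ± 0.29 (SE), or 3.88-fold, with no overlap. Probe 36101 gave 1236, 784 and 1540 units in SHR against 1082, 587 and 700 in WKY, a difference of 0.58 ± 0.33 in the other direction, and here the strains overlapped. The 2 probes thus differed by 2.54 in their log2 difference, more than 99.9% of all 5501 pairs of probes for the same gene. Strbp was chosen for a large difference at a probe, so this rank follows in part from the choice. Non-member pairs with a probe at 4-fold or more had a median gap of 2.15. That threshold itself favours large gaps, and Strbp, at 3.88-fold, lies under it, so the sets are unlike.

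The Hippo pathway gene Mob1a had 4 probes, and they fell into 3 patterns. Probe 189074 read 3029, 2896 and 2713 units in SHR against 8391, 6446 and 8830 in WKY (-1.44 ± 0.16, SE). Probe 289030, which the platform annotation ties to the same transcript sequence entry, read 4719, 3946 and 3919 in SHR against 13302, 8050 and 12146 in WKY (-1.39 ± 0.22). These 2 probes agreed closely, with a gap of 0.06 between their differences and a correlation of 0.987 over the 6 arrays.

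Probe 57112 of Mob1a ran the other way, with 8312, 7935 and 7381 units in SHR against 1332, 5993 and 3448 in WKY. The strains did not overlap, but the WKY arrays were far apart (SD 1.10 against 0.09 in SHR), and the difference of 1.38 ± 0.51 (SE) was 0.79 without WKY 1. Probe 13059 read 1189, 972 and 874 in SHR against 872, 703 and 961 in WKY (0.26 ± 0.18) and overlapped. No direction can be given for Mob1a as a gene, since 2 probes were dimmer and 1 was brighter in SHR with full separation. The related gene Mob1b, with 2 probes, gave 0.04 ± 0.15 and 0.41 ± 0.21.

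**Figure D2:**
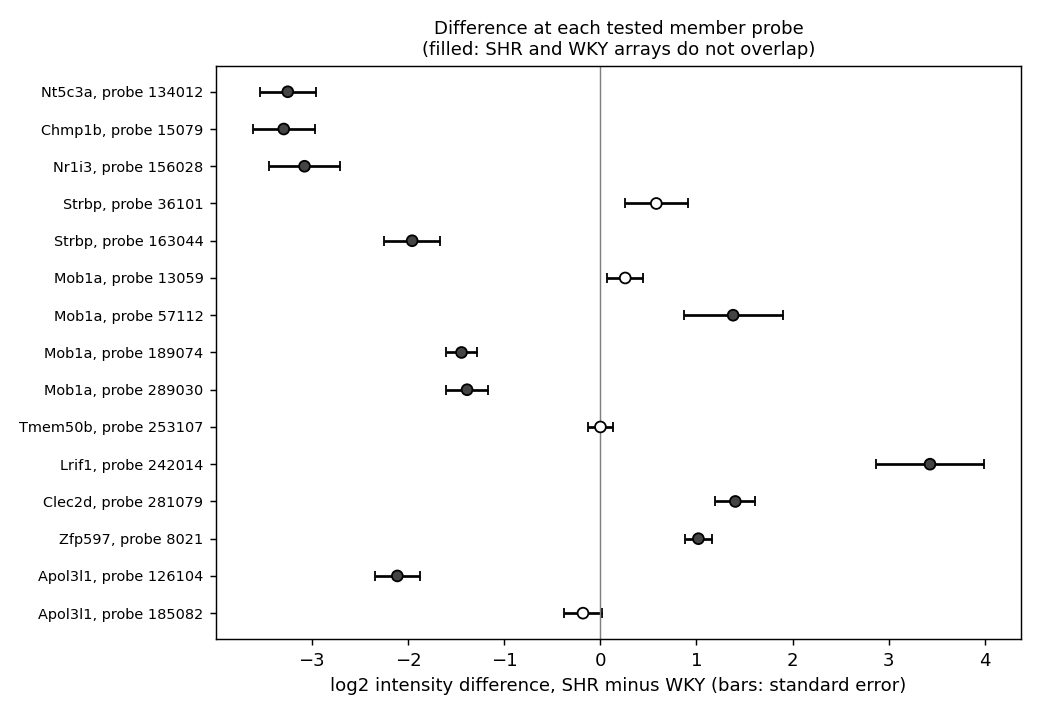
Log2 intensity difference of SHR minus WKY (horizontal axis) at each of the 15 member probes that could be compared, with SE bars. Filled points mark the 11 probes whose SHR and WKY arrays do not overlap. The probes of Strbp and of Mob1a lie on both sides of 0, from -1.96 to 0.58 and from -1.44 to 1.38.

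The apolipoprotein L gene Apol3l1 was dim at its separated probe 126104, with 74.6, 68.5 and 54.3 units in SHR against 219, 274 and 372 in WKY. The difference was -2.11 ± 0.23 (SE), or 4.32-fold, and it was -1.53 when 50 units were added before log2. At the brighter probe 185082 the strains overlapped, with 426, 586 and 651 units in SHR against 539, 683 and 642 in WKY (-0.18 ± 0.20). The pair differed by 1.93, more than 99.6% of pairs of probes for the same gene, a rank that again follows in part from the choice.

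Probe 235017 of the membrane protein gene Tmem50b held the missing-value code on all 3 SHR arrays, in both the series table and the tables of single samples, while WKY read 3777, 2151 and 2603 units. What the code stands for is not stated, so no fold is given. It was the 1 probe of 33849 (0.00295%) that held the code on all arrays of SHR and values on all arrays of WKY, and 0 probes showed the reverse. The other probe, 253107, read 6790, 6267 and 7247 units in SHR against 7123, 6953 and 6208 in WKY. Its difference of 0.00 ± 0.13 (SE, 0.0015 before rounding) turned direction in 4 of 16 alternative settings, and the strains overlapped fully.

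In all, 4 genes had a separated probe brighter in SHR, Mob1a with its probe 57112 among them. The heterochromatin-associated gene Lrif1 gave 2216, 2878 and 2926 units in SHR against 95.6, 392 and 399 in WKY. SHR lay above WKY on every array, and WKY 1 was far below the other WKY arrays. The mean log2 intensity was 11.37 ± 0.23 (SD, n = 3) in SHR against 7.95 ± 1.18 in WKY, and the difference of 3.43 ± 0.56 (SE), or 10.8-fold, was 2.75 without WKY 1.

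The lectin gene Clec2d read 1939, 1270 and 1527 units in SHR against 575, 698 and 506 in WKY, a difference of 1.40 ± 0.21 (SE), or 2.65-fold. The strains did not overlap. Markers of natural killer and T cells, the cells whose receptors bind the product of Clec2d, had a summed intensity of 1598 to 1790 units in SHR against 1876 to 2102 in WKY over 7 genes, and Cd2 had a value not above 0. In that list Cd8a, chosen after its values were seen, was lower in SHR at an unadjusted p under 0.05 (-1.54 ± 0.34, SE), 4 of the 7 genes lay above 0, the median was 0.02 and the array scores overlapped. Of the 15 genes measured in a separate list of natural killer lectin receptors and markers, which lacks Cd8a, 1 was higher and 0 lower in SHR at an unadjusted p under 0.05, and 0 passed the adjusted threshold. Their part in the Clec2d values was not tested.

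The zinc finger gene Zfp597 had the smallest of the separated differences, with 938, 853 and 856 units in SHR against 381, 488 and 441 in WKY. The SHR arrays were tight, with an SD of 0.08 (log2, n = 3) against 0.18 in WKY. The difference was 1.02 ± 0.14 (SE), or 2.03-fold, and ranged from 0.93 to 1.18 over 16 alternative settings.

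The spread within a strain was not itself a criterion for the members, although a lack of overlap depends on it. WKY had the larger SD at 12 of the 15 member probes (80%), and at 53.3% of the 31327 probes valid on all arrays. The median SD of the member probes was 0.23 in SHR against 0.39 in WKY, against 0.20 and 0.22 over all those probes. Within WKY, array 1 was highest at 7 of the 15 probes and lowest at 5, and array 2 was highest at 4 and lowest at 8.

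Deviations of each array from the mean of its own strain were compared next, since they do not contain the difference between the strains. Nt5c3a deviated by -0.27, 0.15 and 0.12 on the SHR arrays and by 0.50, -0.59 and 0.09 on the WKY arrays. Chmp1b deviated by -0.34, 0.20 and 0.14 and by 0.54, -0.63 and 0.09. These values went up and down together on every array, with a correlation of 0.9975 over the 6 deviations and of 0.9997 over the 6 log2 values. The probe sequences were not analysed here, so whether the probes of Nt5c3a, Chmp1b and Nr1i3 share sequence, and which transcript each reads, was not tested. All correlations given here rest on 6 arrays and on the same hybridisations, and are descriptions.

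Nr1i3 followed both genes, with correlations of deviations of 0.945 with Nt5c3a and 0.956 with Chmp1b. Strbp at probe 163044 followed Nt5c3a less closely, at 0.88. Zfp597 ran opposite, with -0.976 for both Nt5c3a and Chmp1b, and with -0.9989 over the log2 values of Nt5c3a. The other separated probes brighter in SHR also ran against Nt5c3a, Mob1a probe 57112 at -0.90, Clec2d at -0.68 and Lrif1 at -0.64. The dimmer Mob1a probes 189074 and 289030 gave 0.66 and 0.70 with Nt5c3a. Apol3l1 at probe 126104, although also dimmer in SHR, did not share the pattern (-0.36 with Nt5c3a).

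**Figure D3:**
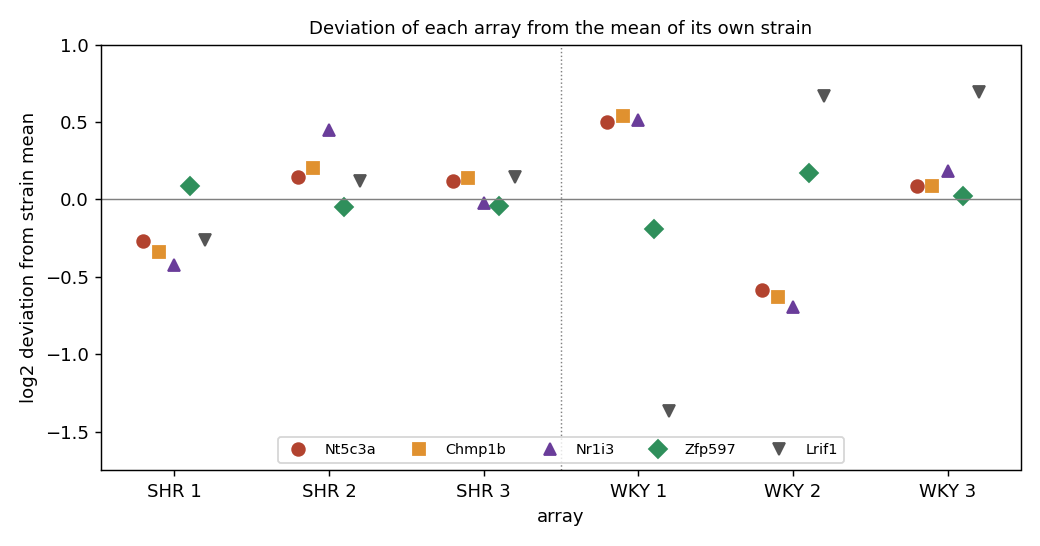
Log2 deviation of each array from the mean of its own strain (vertical axis) for 5 members on the 6 arrays, 1 symbol a gene. Nt5c3a, Chmp1b and Nr1i3 lie close together on WKY 1 and WKY 2, Zfp597 lies on the opposite side of 0 there, and Lrif1 falls to -1.37 on WKY 1.

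Likeness over the 6 arrays contains the difference between the strains by which the members were chosen. The correlation of deviations from the strain means is therefore given with it for the separated probes. The like genes were picked by the value over the 6 arrays, which contains these deviations too, so the deviations are no independent check. Outside the members, the genes most like Nt5c3a over the 6 arrays were Abcb10, a mitochondrial inner membrane transporter gene (r = 0.998), Mmadhc, of cobalamin trafficking (r = 0.998), and Mrps27, of the mitochondrial ribosome (r = 0.996). Their deviations from the strain means correlated with those of Nt5c3a at 0.979, 0.953 and 0.945. The same 3 genes headed the list for Chmp1b, with Mmadhc first (0.997) and deviations at 0.955 to 0.970. Mmadhc, Runx1 and Abcb10 were most like Nr1i3 (0.989, 0.989 and 0.987), with deviations at 0.886, 0.850 and 0.860. Of 252 probes varying enough to be compared with Nt5c3a, 8 (3.17%) reached 0.95 over the 6 arrays, and 1.59% did in the deviations. In the deviations, 7.55% of 159 probes reached 0.95 for Lrif1 and 2.68% of 2051 for Mob1a probe 57112.

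The genes most like Strbp probe 163044 were Serhl2 (0.998), Arhgap25 (0.987) and Abcb10 (0.984), with deviations at 0.981, 0.885 and 0.958. Mylk, the myosin light chain kinase gene, was most like Mob1a probe 189074 (0.991) and Apol3l1 probe 126104 (0.988), followed by Kcnip3 (0.989) and Ptprj (0.988) for the former and by Sox5 (0.963) and Runx1 (0.956) for the latter. Deviations of Mylk, Kcnip3 and Ptprj correlated with those of the Mob1a probe at 0.779, 0.839 and 0.983. For the Apol3l1 probe they correlated at 0.760 for Mylk, 0.407 for Sox5 and 0.115 for Runx1, so within the strains the likeness to Sox5 and Runx1 was weak. Prss35 (0.994), Ybey (0.993) and Kcnip3 (0.992) were most like Mob1a probe 289030, with deviations at 0.954, 0.935 and 0.930.

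The opposite Mob1a probe, 57112, was most like Calhm2 (0.997), Myh9 (0.997) and Mettl2 (0.995), with deviations at 0.998, 0.993 and 0.990. Lrif1 was most like Dglucy (0.992), Slc13a4 (0.987) and Agtrap (0.973), with deviations at 0.959, 0.906 and 0.926. Clec2d was most like Stap1 (0.987), Wt1 (0.981) and Col6a2 (0.979), and Zfp597 was most like Zfyve16 (0.985), Zic4 (0.985) and Col6a2 (0.984). Deviations correlated at 0.990, 0.803 and 0.779 for Clec2d and at 0.652, 0.795 and 0.847 for Zfp597, lower than the likeness over the 6 arrays except for Stap1.

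For the member probes that overlapped, the nearest patterns were Mterf2 (0.999), Arl6 (0.998) and Ccn5 (0.997) for Strbp probe 36101, where 6.12% of 6123 probes reached 0.95. Ltbr (0.992), Mcm2 (0.983) and Smarca4 (0.979) were most like Mob1a probe 13059. Tbc1d10a (0.995), Abhd17c (0.991) and Spata13 (0.990) were most like Tmem50b probe 253107, and Csnk2a1 (0.989), Vmac (0.979) and Ralgapa1 (0.975) were most like Apol3l1 probe 185082.

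Interferon-stimulated genes were set beside the members because Nt5c3a and genes of the apolipoprotein L family are known to respond to interferon. The array scores of 45 such genes, each a mean of centred log2 values, were -0.16, 0.26 and -0.31 in SHR against -1.004, 0.51 and 0.71 in WKY, with WKY 1 far below the rest. Nt5c3a was highest on WKY 1, where these genes were lowest, and its deviations correlated with those of the score at -0.60. Apol3l1 probe 126104 gave 0.79 and its other probe 0.44. Lrif1 gave 0.94 and Mob1a probe 57112 gave 0.85, both with their lowest value on WKY 1, and Zfp597 gave 0.72. Both Strbp probes (-0.82 at 36101, -0.79 at 163044) and Tmem50b probe 253107 (-0.69) ran against the score. The other member probes lay between -0.57 (Chmp1b) and -0.06 (Mob1a probe 13059). Over the 6 log2 values the correlations were 0.00 for Nt5c3a, 0.31 for Apol3l1 probe 126104, 0.23 for Lrif1 and -0.72 for Strbp probe 36101.

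Of the 45 interferon genes, 0 passed the adjusted threshold of limma, and 0 were higher and 1 lower at an unadjusted p under 0.05. Over 1 probe a gene, 3.38% of 11709 genes were higher and 3.31% lower. The gene lower in SHR was Tap1, the peptide transporter of antigen presentation (-0.71 ± 0.19, SE, adjusted p = 0.53). Without WKY 1, 20 of the 45 were lower and 0 higher, where 4.72% of all genes were lower and 5.09% higher in that setting. Ifi47 gave -0.43 ± 0.32 and Ifitm3 0.23 ± 0.16.

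The genes listed with the members, as pathway partners, relatives or genes of the same region, differed little as a whole. The interferon genes are among them, and the lists for Apol3l1 and Tmem50b include genes of the chromosome region. Over all 237 measured genes of the 11 lists, 6 were higher and 5 lower in SHR at an unadjusted p under 0.05 (4.64% together, where 6.7% of all genes were), and 0 passed the adjusted threshold. Their median difference was -0.04, against 0.00 over all genes. Without WKY 1 the count was 39, with the 20 interferon genes among them, where 9.81% of all genes were called.

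Of 21 pyrimidine and nucleotide salvage genes, 0 were higher and 1 lower, with a median of -0.11. The lower gene was the uridine-cytidine kinase gene Uck2 (-0.43 ± 0.17, SE), followed by the deaminase gene Dctd (-0.33 ± 0.15) and the nucleotidase gene Nt5c (-0.43 ± 0.22). Nt5c3b, the nearest relative of Nt5c3a, gave 0.12 ± 0.13, with 983, 1076 and 1159 units in SHR against 997, 1014 and 938 in WKY. It overlapped between the strains.

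Of 24 ESCRT genes, 0 were higher and 0 lower, and the median was -0.02 (range -0.22 to 0.21). Vps37c (-0.22 ± 0.14, SE), Usp8 (-0.18 ± 0.12) and Stam2 (0.16 ± 0.14) had the smallest p. Chmp1a, the other CHMP1 gene, gave -0.05 ± 0.22 and -0.03 ± 0.22 at its 2 probes. The other CHMP genes of the list that were measured, Chmp2b, Chmp4c, Chmp6 and Chmp7, gave 0.00, 0.20, 0.04 and -0.10.

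Among 30 partners and targets of the Nr1i3 receptor, 0 were higher and 1 lower. The lower gene was Abcc3, an efflux transporter gene that the receptor can induce in liver (-0.93 ± 0.17, SE, adjusted p = 0.339 in limma), with no overlap. Gadd45b gave 0.34 ± 0.16 and Abcc4 -0.30 ± 0.15. Nr1i2, the related pregnane X receptor gene, gave -0.17 ± 0.29, and the list median was -0.06.

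In the Hippo list, 1 of 29 genes was higher and 1 lower. The lower gene was Stk4, which encodes the MST1 kinase that phosphorylates MOB1 (-0.88 ± 0.23, SE, adjusted p = 0.531 in limma), and the higher one was Frmd6 (0.60 ± 0.21). Of 15 double-stranded RNA binding protein genes, 0 were higher and 0 lower, with Stau2 (0.42 ± 0.18), Cdkn2aip (0.32 ± 0.16) and Mrpl44 (0.20 ± 0.14) leading. Of 21 heterochromatin genes, 0 were higher and 0 lower, with Ehmt2, a histone methyltransferase gene, at -0.34 ± 0.15, Mphosph8 at 0.37 ± 0.16 and Dnmt3a at -0.35 ± 0.20.

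Of 25 imprinted genes, 2 were higher and 0 lower, Mest (0.50 ± 0.14, SE) and the proteoglycan gene Dcn (1.24 ± 0.50), and Phlda2 gave 0.53 ± 0.24. Dcn overlapped between the strains and is also in the list of fibroblast and meningeal markers. The natural killer gene higher in SHR was Klrg1 (0.73 ± 0.27), and Ncr3 gave -0.48 ± 0.28 and Gzma -0.20 ± 0.13. Of 5 genes measured in the apolipoprotein L list, Myh9 was higher and Rbfox2 lower (-0.51 ± 0.17), and Apol9a, a family member, gave -0.12 ± 0.29. Of 11 genes in the Tmem50b list, Gart was the 1 higher gene and 0 were lower, Cryzl1 gave 0.26 ± 0.18, and Tmem50a, the closest relative of Tmem50b, gave -0.09 ± 0.12.

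Markers of 4 cell types are given beside the members of both directions. They are not all the marker lists made, and others follow at the end. Of 11 oligodendrocyte lineage markers, 10 lay below 0 in SHR minus WKY, with a median of -0.76, and 0 passed the adjusted threshold of limma. At an unadjusted limma p under 0.05, 3 were lower, Enpp6 (-1.51), Mobp (-1.46) and Cspg4 (-0.76), where 3.31% of all genes were. Their array scores were -0.51, 0.26 and -0.69 in SHR against 0.24, 0.47 and 0.24 in WKY and overlapped through SHR 2. Fibroblast and meningeal markers (9 genes) had array scores of -0.05 to 0.56 in SHR against -0.52 to -0.17 in WKY. Their summed intensities were 26596 to 33227 and 21882 to 28371 units, and 3 genes, Col1a1, Thy1 and Igf2, lay below 0. At an unadjusted limma p under 0.05, 4 of the 9 (44.4%) were higher and 0 lower, where 3.38% of all genes were higher. These were Slc6a13 (1.62), Aldh1a2 (1.49), Lum (1.46) and Dcn (1.24), and 0 passed the adjusted threshold. Ependymal and choroid plexus markers (6 genes) had scores of 0.24 to 0.69 in SHR against -0.78 to -0.15 in WKY. Their summed intensities were 34303 to 50105 and 26839 to 40791 units, and 1 gene, Kl, lay below 0. In the same limma fit 2 of the 6 (33.3%) were higher, Ttr (2.66) and Otx2 (1.47), and 0 were lower. Ttr lay farthest from 0, and 0 passed the adjusted threshold. Smooth muscle markers (6 genes) had scores of -0.26 to -0.18 in SHR against 0.05 to 0.39 in WKY. Their summed intensities were 25261 to 27833 and 22044 to 32866 units. In that list 2 genes, Tagln and Myl9, lay above 0, and Mylk lay farthest below 0 (-1.63). Mylk was the 1 gene lower at an unadjusted limma p under 0.05 (16.7%), and 0 were higher. The summed intensities of all 4 lists overlapped between the strains. Among the markers of these 4 lists, 1 gene, Clic6, had a value not above 0. The array scores of the astrocyte, neuron, microglia and macrophage, and endothelial and pericyte lists overlapped between the strains. At an unadjusted limma p under 0.05, the neuron list had 1 gene higher and the astrocyte list 1 lower. Microglia and macrophage (10 genes) and endothelial and pericyte markers (9 genes) had 0 in either direction, with medians of -0.07 and -0.04. The part of all these markers in the differences of the members was not tested.

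Genes lying next to the members in the RefSeq gene order of GRCr8 were not used to choose them. In all, 30 such genes, up to 3 on each side within 5 places, were measured around 9 members, and none was found for Clec2d. Of these, 4 were higher and 1 lower in SHR at an unadjusted p under 0.05, which is 16.7% against 6.7% of all genes, and 0 passed the adjusted threshold of limma. Myh9 and Gart, both higher, were also counted in the gene lists above. The count of 5 was 3 without SHR 1 or SHR 3, and up to 7 when other single arrays were left out. The median difference of the 30 genes was 0.18.

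Beside Chmp1b, the phosphoesterase gene Mppe1 was next after it and gave 0.56 ± 0.15 (SE, adjusted p = 0.531), against the direction of Chmp1b. The lipid droplet gene Cidea, 5 places after, gave -1.23 ± 0.23 (adjusted p = 0.349), and Gnal, 5 places before, gave 0.42 ± 0.52. Beside Nr1i3, Tomm40l, a paralog of a mitochondrial import channel gene, gave 0.68 ± 0.18 (adjusted p = 0.531) and Pcp4l1 0.67 ± 0.28, both opposite to Nr1i3. These neighbours differed by less than the members they flank.

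Beside Tmem50b, the purine synthesis gene Gart, 3 places after, gave 1.39 ± 0.57 (SE, adjusted p = 0.646, and 0.76 without WKY 1), while the nearest genes Ifngr2 and Son gave 0.19 ± 0.14 and -0.13 ± 0.12. Beside Apol3l1, the nonmuscle myosin gene Myh9 gave 1.82 ± 0.64 (adjusted p = 0.588, and 1.05 without WKY 1), opposite to Apol3l1. The nearest measured genes of Nt5c3a and Strbp, Fkbp9 and Rabgap1, gave 0.24 ± 0.15 and 0.03 ± 0.19. Mthfd2 (-0.21 ± 0.20) and Bola3 (0.08 ± 0.20) flank Mob1a, and Cept1 (-0.13 ± 0.13) and Cd53 (-0.07 ± 0.13) flank Lrif1.

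Beside Zfp597, Naa60, its imprinted neighbour, gave 0.20 ± 0.13 (SE) and Or2c1 gave -0.52 ± 0.27. The mitochondrial chaperone gene Trap1 lies 7 places away in the gene order on the same chromosome, and was looked at after its values were seen. Trap1 read 459, 377 and 638 units in SHR against 8024, 5163 and 6204 in WKY, a difference of -3.73 ± 0.25 (adjusted p = 0.0528 in limma), against 1.02 for Zfp597. These genes of the same stretch of chromosome 10 thus stood in opposite directions, with Cluap1 between them at 0.21 ± 0.25.

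**Figure D4:**
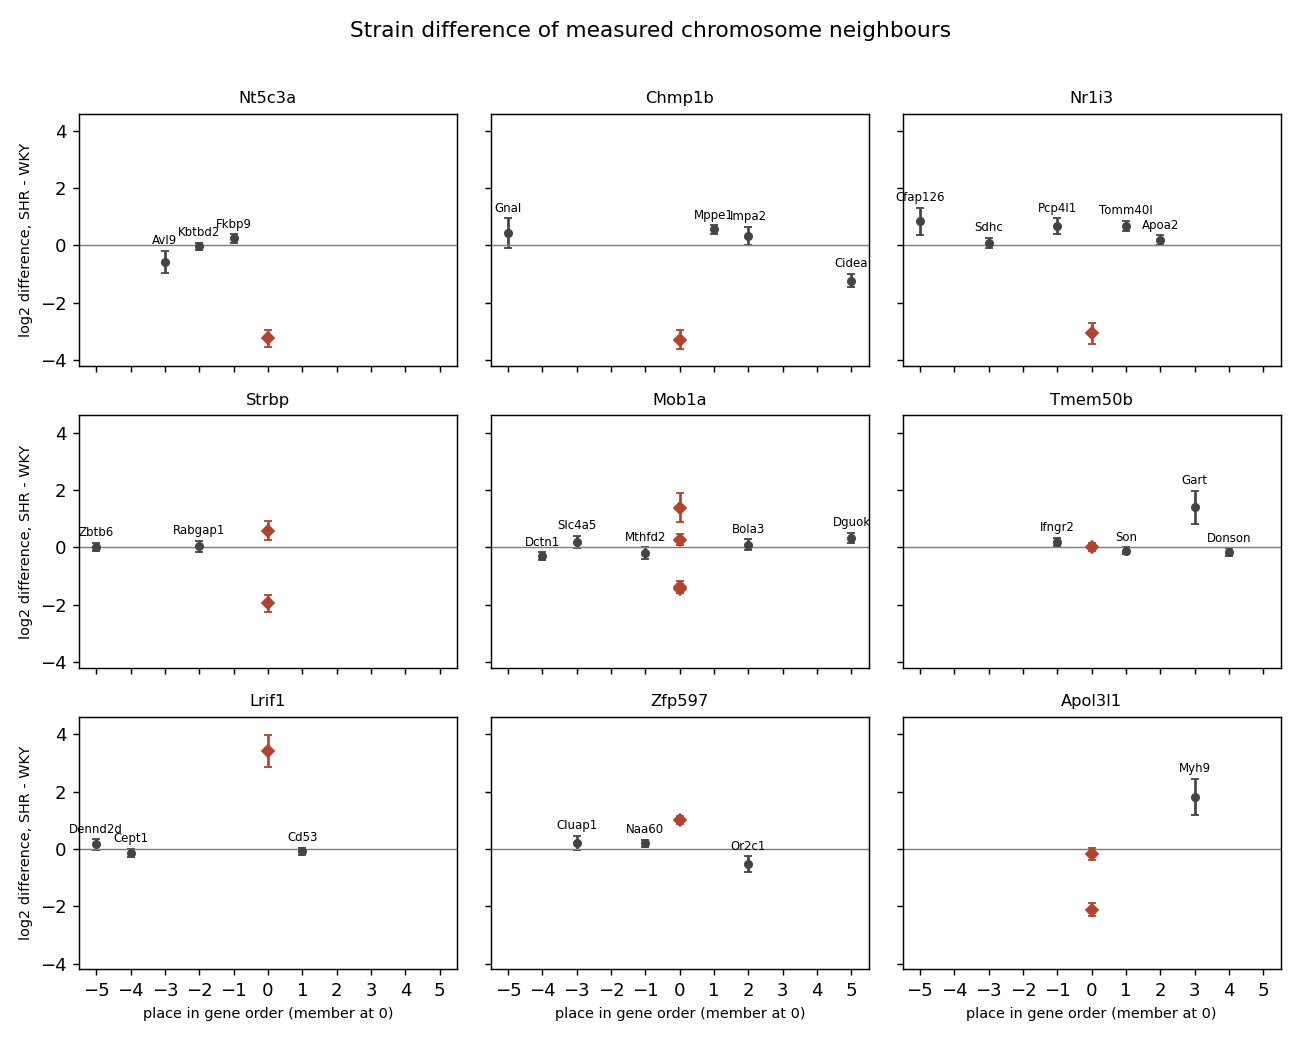
Log2 difference of SHR minus WKY (vertical axis, bars are SE) for measured genes up to 5 places before or after 9 members in the RefSeq gene order (horizontal axis), with the member probes as red diamonds at 0. Most neighbours lie near 0, and Myh9 (1.82), Gart (1.39) and Cidea (-1.23) lie farthest from it.

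Disagreement between probes of 1 gene was set against the rest of the array. Over 5501 pairs of probes for the same gene in 3618 genes, the median gap between their log2 differences was 0.20, the gap of 5% of pairs exceeded 0.83, and 60.2% of pairs had the same sign. Only 14 pairs (0.255%) had a gap of at least 4-fold, and 3 of the 8 member pairs that could be formed are among them. The members were chosen for a large difference at a probe, so this share follows in part from the choice. Among 15 pairs of 12 genes that are no members and have a probe at 4-fold or more, 9 had such a gap and 10 had the same sign. The median gap of these 15 pairs was 2.15. Every Strbp and Mob1a probe lay under 4-fold, so their pairs are not matched to this set.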

How the data were processed

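The design text in the labels states that the authors took spot intensities, with background removed, from CodeLink's own software. It also states that values lower than the negative controls plus 2 SD were dropped, that a gene needed valid values on every array of a strain, and that quantile normalization followed. No software version is named there. The deposited intensities are linear and come as a normalized series table, used here, and as tables of single samples that differ in their medians. A missing-value code and other values not above 0 (615 of each column of the series table) were set to missing.

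The 33249 probes that had 3 valid values for a strain, and no fewer than 2 for its counterpart, were tested on the log2 scale with limma 3.58.1 in R 4.3.3 (lmFit and eBayes, SHR minus WKY, two-sided, Benjamini-Hochberg over all probes). Names come from the platform annotation (probes with 1 symbol), neighbours from the gene order of GRCr8, and no genome build is named for the arrays. For lists and neighbours the brightest complete probe of a gene was used. The members and lists were chosen with earlier results of these data known. The text names every member probe, the 3 genes of each list with the smallest p, close relatives of members, the nearest measured neighbour on each side and up to 3 more by smallest p, and the 3 genes most like each member probe, among probes whose SD is at least 50% of that of the member. Trap1, with Cluap1 between it and Zfp597, was added after its values were seen. The fit was tested on simulated data. Alternatives covered the source of values, normalization, offset, probe filters, the limma settings, the replicate block and each array left out.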

Additional observations from a re-analysis of the deposited data

How the results depend on the processing

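The 239 values of member probe differences under alternative settings held no change of direction, apart from the Tmem50b probe 253107 that lies at 0, and 3 of them moved by more than the spread between replicates. At least 9 of the 15 probes stayed at 2-fold or more (11 with the deposited normalization). Of 573 values for named genes that are no members, 1 turned, the difference of Txn2, from 0.28 to -0.0591 without SHR 1 (up to 0.67 without SHR 3). Probes past an adjusted p of 0.05 numbered 0, and 18 when the dimmest 25% of probes were dropped, 28 with limma's trend and robust options, 5 each with array weights, with an offset of 50 and with probes valid on all arrays, 13 at an adjusted p of 0.10, and 0 to 1 without single arrays. The number of probes with unadjusted p under 0.05 ranged from 1691 to 3493 without single arrays. The count over the gene lists of the members (11) ranged from 6 without SHR 3 to 39 without WKY 1, and was 7 without WKY 3. That over the neighbours (5) ranged from 3 without SHR 1 or SHR 3 to 7. Of 176 list medians, 15 moved by more than the spread of the list's array scores, and unnormalized intensities shifted all probes by 0.12. The causes were not tested. Fitting a replicate block by array number gave 0 probes past the adjusted threshold and 2798 probes with unadjusted p under 0.05, and the list and neighbour counts were 12 and 7. Deviations of same-numbered arrays correlated at 0.0011, 0.22 and -0.13, so the numbers are not shown to pair the arrays. The dim Apol3l1 probe 126104 moved from -2.11 to -1.53 with the offset.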
